A study of Mus musculus with 17 samples.

Results

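The choroid plexus genes described here are 10 genes chosen by name from the 46073 genes listed for every library: Ttr, Kl, Folr1, Otx2, Sostdc1, Clic6, Aqp1, Slc4a5, Enpp2 and Prlr. Their symbols were tied to the deposited Ensembl identifiers through GENCODE M21, and each symbol gave 1 gene. The RNA came from frontal cortex of male FVB/N mice, and polyadenylated transcripts were sequenced. The mice called Ct carried a CamK driver transgene alone (n = 6), and those called dTg carried the driver together with a miR-211 transgene that it switches on, in a Tet-off design (n = 7). The mice called dTgDox carried both transgenes and received doxycycline, which silences such a design, for 4 days (n = 3). By their labels all 3 groups share the CamK driver, which acts in forebrain excitatory neurons. No Ct mice received doxycycline, so the drug and the loss of miR-211 production cannot be told apart. The age of the mice is not given in the sources used here. Libraries are named below by group and number, so that dTgDox 3 is the third dTgDox library.

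The choroid plexus is a sheet of epithelium that hangs into the brain ventricles and secretes cerebrospinal fluid. It moves ions and water with bicarbonate and chloride carriers and aquaporins, and it makes transthyretin, the carrier of thyroid hormone and retinol in that fluid, in very large amounts. Its genes are hardly active in cortical neurons, so a small piece of this tissue in a cortical dissection can be seen in RNA. In bulk tissue, more cells of a type and more RNA per cell cannot be told apart. Of the 10 genes, Enpp2 is also made by oligodendrocytes, Kl also by neurons outside the choroid plexus, and Otx2 also by cells of the cerebellum, so a change in these genes need not follow the others.

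The 17 deposited tables held 16 distinct libraries, because the table labelled NTg 1, from a mouse that has the inducible miR-211 transgene but lacks the driver, was identical to that of dTg 1. That library was counted once, as dTg 1, and NTg was compared with nothing. Which label is right could not be settled, so whether the mouse of dTg 1 carried the driver is not known. Relative depth, estimated from ratios of low values, ran from 0.87 to 1.22 times the median library, and between 15762 and 16085 genes reached 1 FPKM (the unit of all levels here, sequenced fragments divided by transcript length and by library size). The absolute depth is not known, so no counting intervals are given. The labelled tissue did not hold for dTg 1: the summed level of 12 markers of cerebellar neurons was 3682 FPKM there and 113 to 207 FPKM in the other libraries. The summed level of 10 markers of excitatory cortical neurons was 231 FPKM in dTg 1 and 1943 to 3194 FPKM in the rest. Markers of hippocampal neurons also separated the groups, with a summed level of 272 to 320 FPKM over 12 genes in the 3 dTgDox libraries and 46.1 to 71.4 FPKM in the 13 others. Results that rest on dTg 1 or dTgDox 3 are given with and without them. Leaving them out does not remove the hippocampal difference, because all 3 dTgDox libraries carry it.

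Ttr, which encodes transthyretin (chromosome 18, 20665280 to 20674321 in GRCm38, plus strand), spanned the widest range of the 10 genes. Among Ct libraries its level ran from 0.661 FPKM through a median of 1.77 to 86.7 FPKM in Ct 6. Among dTg libraries it ran from 0.407 FPKM through a median of 60.7 to 665 FPKM in dTg 1. In dTgDox it was 18.3, 38.4 and 1907 FPKM. Ct 6 stood alone in its group, since Ct 1 to Ct 5 lay between 0.661 and 3.56 FPKM, whereas dTg split into 3 libraries at 0.407, 1.05 and 1.42 FPKM and 4 at 60.7, 88.2, 120 and 665 FPKM. The order of the upper libraries was dTgDox 3, dTg 1, dTg 6, dTg 4, Ct 6, dTg 2, dTgDox 2 and dTgDox 1. Ttr thus did not set dTgDox 3, dTg 1 and Ct 6 apart from all other libraries: dTg 6 (120 FPKM) and dTg 4 (88.2 FPKM) both exceeded Ct 6 (86.7 FPKM), and the 3 groups overlapped.

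**Figure D1:**
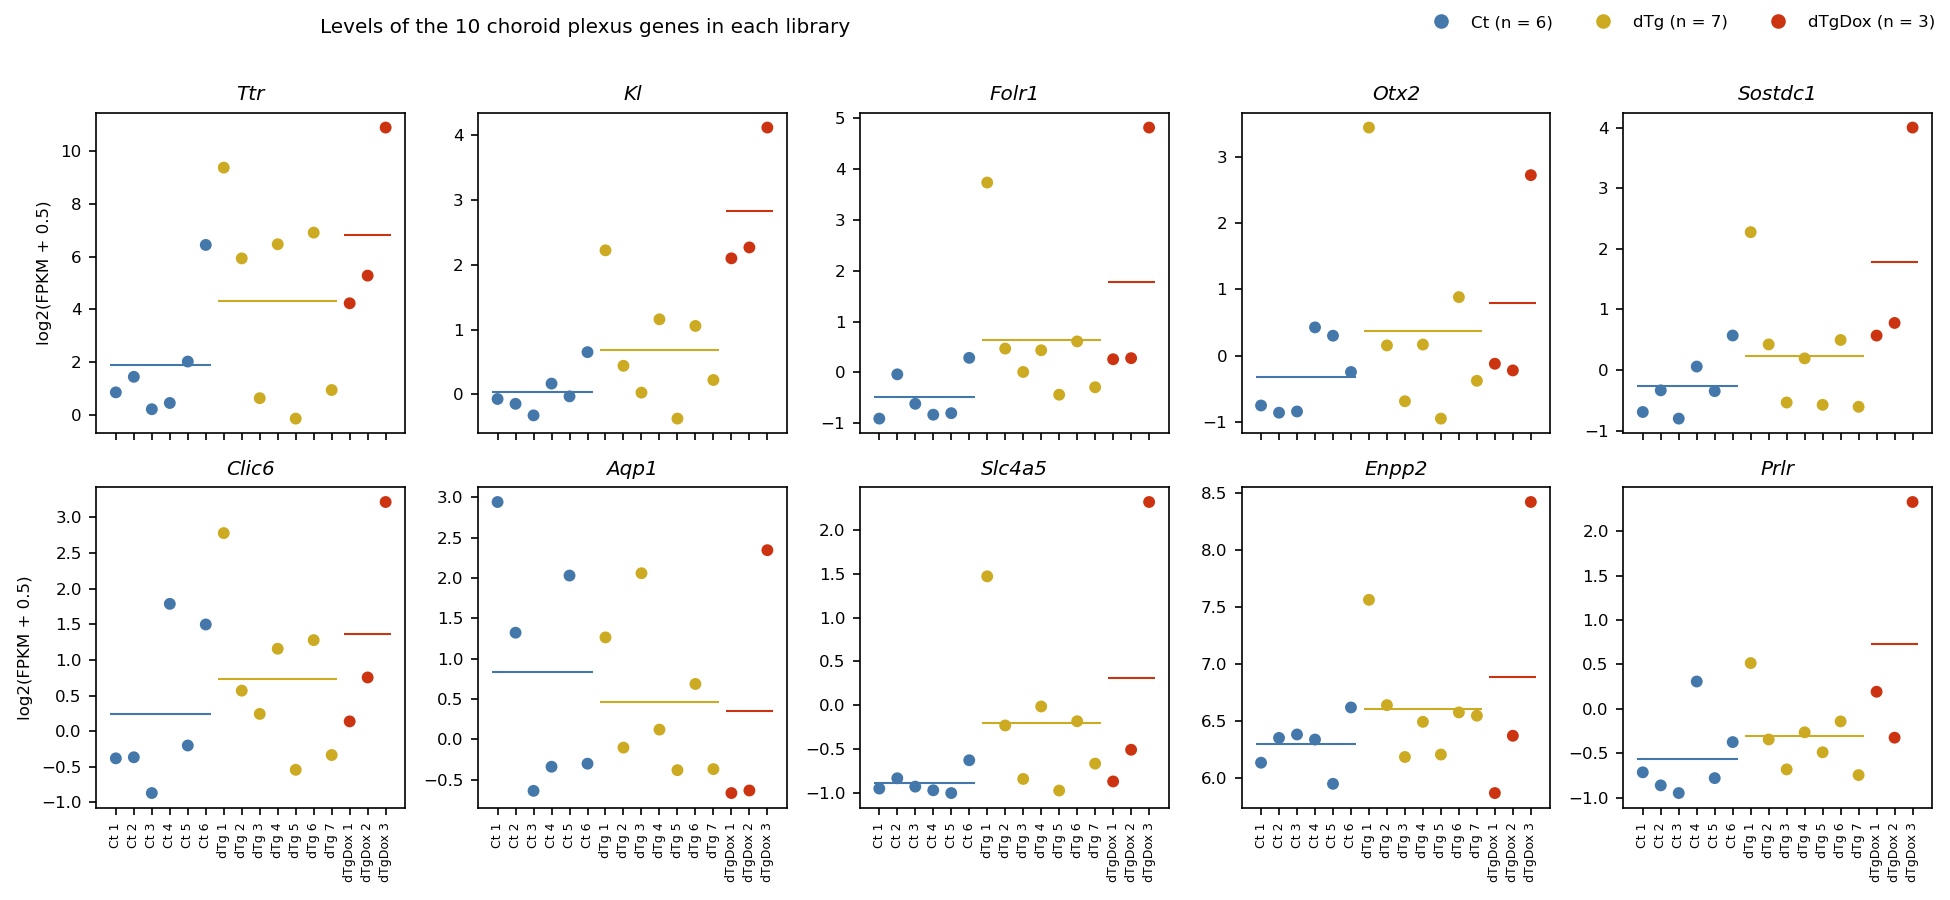
Level of each of the 10 choroid plexus genes, as log2(FPKM + 0.5), in each of the 16 libraries, with points coloured by group and a line at each group's mean. dTgDox 3 is the highest library for 8 genes, dTg 1 for Otx2 and Ct 1 for Aqp1.

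The other genes of the list placed dTgDox 3 and dTg 1 at the top as well. dTgDox 3 held the highest value of 8 of the 10 genes, and dTg 1 the second highest of 7. Against the mean of dTgDox 1 and dTgDox 2, dTgDox 3 was higher for all 10 genes, by 4.15 times (Kl) to 67.3 times (Ttr). Against the mean of dTg 2 to dTg 7, dTg 1 was higher by 1.8 times (Aqp1) to 20.8 times (Otx2), and it exceeded each of those 6 libraries for 9 genes, Aqp1 being the exception. Ct 6 exceeded each of the 5 other Ct libraries for 6 of 10 genes, namely Ttr, Kl, Folr1, Sostdc1, Slc4a5 and Enpp2. It did not do so for Otx2, Clic6, Aqp1 or Prlr. These are ratios and counts from single libraries and carry no replicate error. The share of all genes that exceed the rest of the group in the same library was not computed, so the counts describe these genes alone.

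A separate list of 25 choroid plexus epithelial markers, none of them among the 10, also placed dTgDox 3 and dTg 1 highest but ordered the others differently. It includes Kcne2, a potassium channel subunit, Kcnj13, an inward rectifier channel, and Cldn2, a claudin of leaky epithelia. The summed level of the 25 was 154 FPKM in dTgDox 3, 82.0 FPKM in dTg 1, 45.8 FPKM in dTgDox 1, 31.0 FPKM in Ct 6, 30.7 FPKM in dTgDox 2, 30.5 FPKM in dTg 6 and 24.3 FPKM in dTg 4. dTg 2 had 24.2 FPKM, and the lowest library of all, Ct 2, had 17.6 FPKM. dTgDox 1 thus came next after dTg 1 by this sum, though it had rank 8 by Ttr. Of its 45.8 FPKM, Slc29a4 made up 12.7 FPKM and Car12 10.5 FPKM. Kcne2 was at 6.57 FPKM in dTgDox 3, 3.21 FPKM in dTg 1, 0.578 FPKM in dTg 6, 0.450 FPKM in dTg 4 and 0.401 FPKM in Ct 6, with at most 0.161 FPKM elsewhere. In dTgDox 3 all 25 markers exceeded both other dTgDox libraries, with a median ratio of 6.4. In dTg 1 18 of 25 exceeded the 6 other dTg libraries, and in Ct 6 14 of 25 exceeded the 5 other Ct libraries. The share of all genes that did so was not computed for any of these libraries. The 14 ependymal markers summed to 54.8 FPKM in dTgDox 3, 35.6 FPKM in dTgDox 2 and 30.2 FPKM in dTgDox 1, all above the 10.6 to 29.1 FPKM of the Ct and dTg libraries, among which dTg 1 had 19.8 FPKM. The 14 markers of meninges and fibroblasts summed to 203 FPKM in dTgDox 3, 164 FPKM in dTgDox 1 and 48.4 to 121 FPKM in the others.

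**Figure D2:**
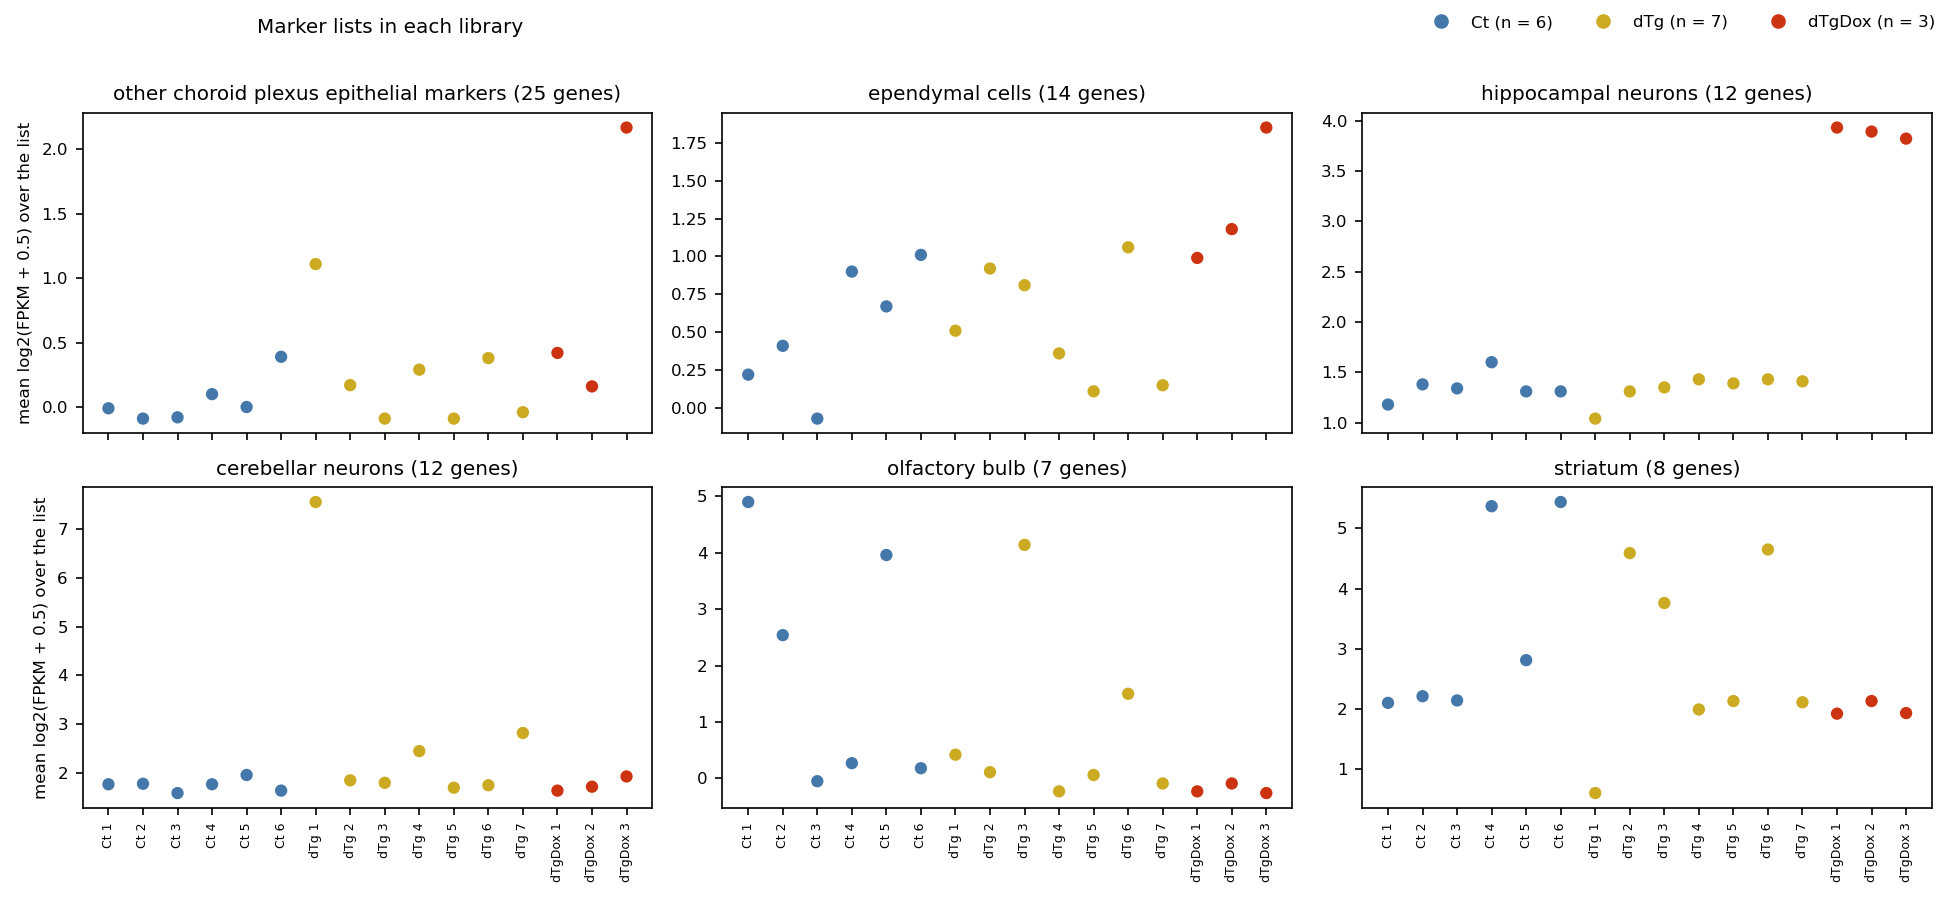
Mean log2(FPKM + 0.5) over 6 marker lists in each library, coloured by group. dTgDox 3 leads for choroid and ependymal markers, dTg 1 for cerebellar neurons, all 3 dTgDox libraries for hippocampal neurons, Ct 1, dTg 3, Ct 5 and Ct 2 for olfactory bulb, and Ct 6, Ct 4, dTg 6 and dTg 2 for striatum.

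The proportions of the genes to Ttr were compared between the 2 libraries with the most of it. Per 100 FPKM of Ttr, dTgDox 3 held 0.879 FPKM of Kl, 1.44 of Folr1, 0.814 of Sostdc1, 0.235 of Slc4a5 and 0.240 of Aqp1. dTg 1 held 0.625 FPKM of Kl, 1.91 of Folr1, 0.653 of Sostdc1, 0.342 of Slc4a5 and 0.286 of Aqp1. For these 5 genes the proportions in dTg 1 were 0.711 to 1.45 times those in dTgDox 3. When the mean level in the other libraries of each group was first subtracted from every gene, Ttr included, Aqp1 turned from higher to lower in dTg 1, at 0.136 FPKM per 100 of Ttr against 0.237 in dTgDox 3. The mean of Aqp1 subtracted from dTg 1 was 1.056 FPKM, raised by dTg 3 at 3.67 FPKM, and the median of dTg 2 to dTg 7 was 0.509 FPKM. Those libraries held far less of the cerebellar markers than dTg 1, so their levels need not be its background. Otx2, a homeobox factor needed for choroid plexus formation, stood apart, at 1.56 FPKM per 100 of Ttr in dTg 1 and 0.320 in dTgDox 3, a ratio of 4.87. Clic6, a chloride channel family member, was 2.08 times higher per Ttr in dTg 1, Enpp2 was 1.58 times higher (16.4 against 14.5 FPKM per 100 of Ttr after the same subtraction), and Prlr was lower at 0.589 times. Markers of cerebellar neurons were high in dTg 1, as given above, and their part in the Otx2 and Clic6 proportions was not tested.

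The dTgDox 3 proportions also gave, for each of the 14 remaining libraries, the amount of a gene that would accompany the Ttr present. The level in dTgDox 1 and dTgDox 2 was not subtracted for this. With that subtraction the dTgDox 3 proportion per 100 FPKM of Ttr was 0.677 FPKM of Kl, against 0.879 without it. For Enpp2 it was 14.5 FPKM against 17.95. The amounts given here for Kl and Enpp2 would thus be lower with it. For Kl that amount was 0.161 FPKM in dTgDox 1 and 0.338 FPKM in dTgDox 2, where 3.78 and 4.30 FPKM were measured. In Ct 6, dTg 2, dTg 4 and dTg 6 the same amount was 44.8% to 71.1% of the Kl measured. For Enpp2 it was at most 21.5 FPKM in the 14 libraries, in which 58.0 to 99.3 FPKM were measured. For Aqp1 it was at most 0.288 FPKM, against up to 7.19 FPKM measured, in Ct 1. The plot of 4 genes against Ttr shows the same: Kl lay far above the proportion in dTgDox 1 and 2, and Aqp1 in 4 libraries with little Ttr.

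**Figure D3:**
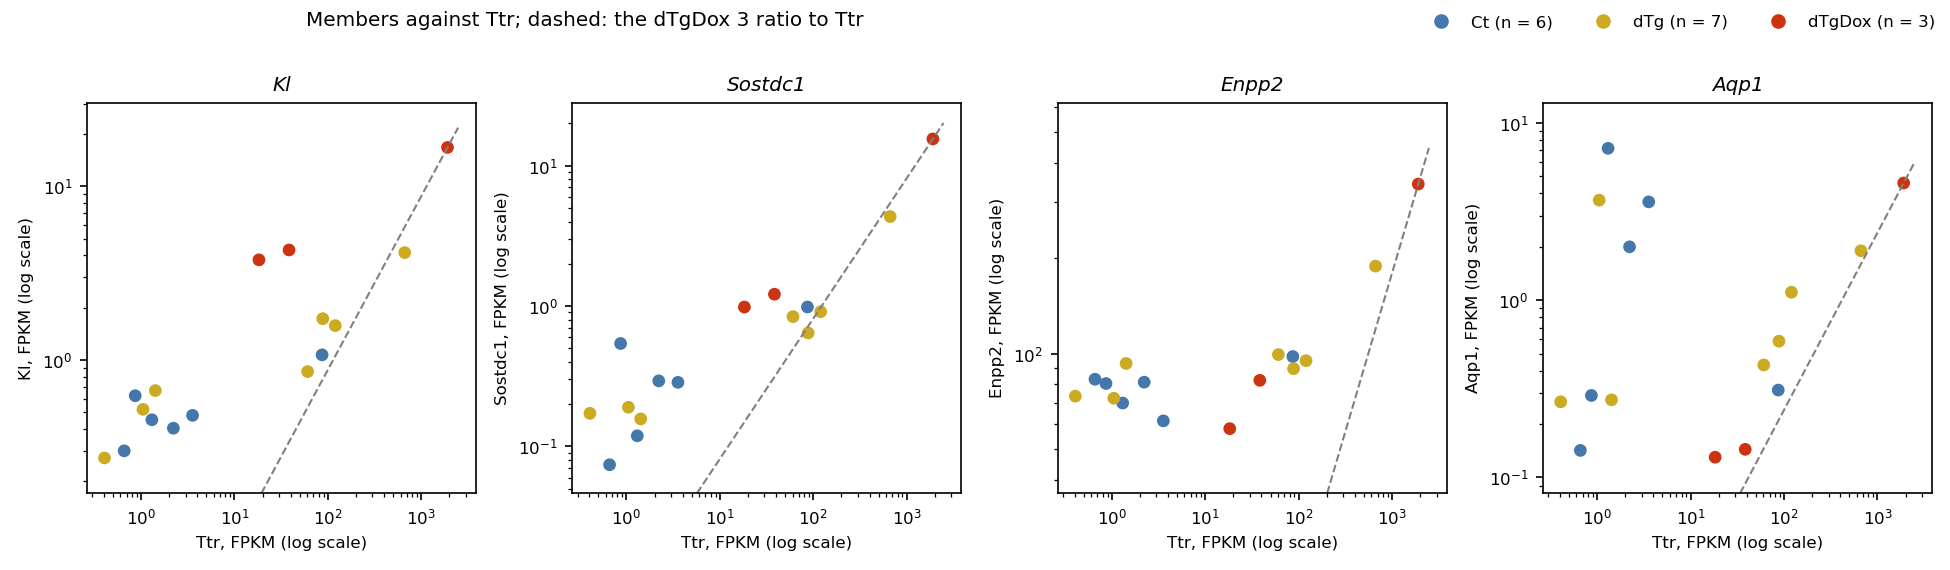
Levels of Kl, Sostdc1, Enpp2 and Aqp1 against that of Ttr in the 16 libraries, in FPKM on log axes, coloured by group, with a dashed line at the proportion to Ttr seen in dTgDox 3. Kl in dTgDox 1 (3.78 FPKM) and dTgDox 2 (4.30 FPKM) lies far above the line, and Aqp1 is high in Ct 1, dTg 3, Ct 5 and Ct 2, where Ttr is 1.05 to 3.56 FPKM.

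Differences between groups were fitted with limma on log2(FPKM + 0.5) over 19186 genes that reached 0.5 FPKM in at least 3 libraries, and p-values were adjusted over all of them by the Benjamini-Hochberg method. Of the 10 choroid plexus genes 9 passed that filter. Slc4a5 did not, because only dTgDox 3 and dTg 1 reached 0.5 FPKM. Comparing dTg with Ct addresses what excess miR-211 does, and no gene passed an adjusted p of 0.05 by limma (0% of 19186 genes with all 16 libraries, with the 15 without dTg 1 and with the 13 without dTg 1, Ct 6 and dTgDox 3). At an unadjusted p under 0.05 there were 480, 616 and 604 genes, of which 0, 0 and 1 were choroid plexus genes. The one was Folr1 in the 13 libraries (difference 0.77, SE 0.22, unadjusted p = 0.00389, limma adjusted p = 0.999). In those 13 libraries dTg 2, dTg 4 and dTg 6 still held 60.7, 88.2 and 120 FPKM of Ttr, and Ct 1 to Ct 5 at most 3.56 FPKM. With all 16 libraries, Ttr differed by 2.40 (SE 1.70, limma adjusted p = 0.961) between dTg and Ct, less than 2 standard errors.

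Comparing dTgDox with dTg addresses what follows when production of miR-211 is switched off. Comparing dTgDox with Ct sets both transgenes and the drug against the driver alone without the drug. All 3 dTgDox libraries also held more of the hippocampal markers than every other library. Group and hippocampal content therefore cannot be told apart in either comparison. With all 16 libraries 8.01% of genes passed against dTg and 7.84% against Ct, and 1 of the 9 choroid plexus genes (11.1%) passed in each, so their share was near that of all genes. That gene was Kl. The median difference of the 9 was 1.04 against dTg and 1.29 against Ct, with 8 of 9 positive in each, while the median over all genes was -0.01 in both. Without dTg 1, 18.7% of genes passed against dTg and 19.6% against Ct, and 2 and 3 of the 9 choroid plexus genes passed: Kl and Sostdc1 in both, and Prlr against Ct. Without dTg 1, Ct 6 and dTgDox 3, 11% of genes passed against dTg and 10.9% against Ct, and Kl alone of the 9 passed in both. The median difference of the 9 was then 0.14 against dTg and 0.53 against Ct. This fit did not even out Ttr between the groups. It kept dTgDox 1 and dTgDox 2 (18.3 and 38.4 FPKM) and dTg 2, dTg 4 and dTg 6 (60.7 to 120 FPKM), against 0.661 to 3.56 FPKM in Ct 1 to Ct 5. Leaving out dTgDox 3 alone took the median against dTg to -0.29, with 4 of 9 positive. The 2 doxycycline comparisons share the dTgDox libraries, so their values are not independent of each other.

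**Figure D4:**
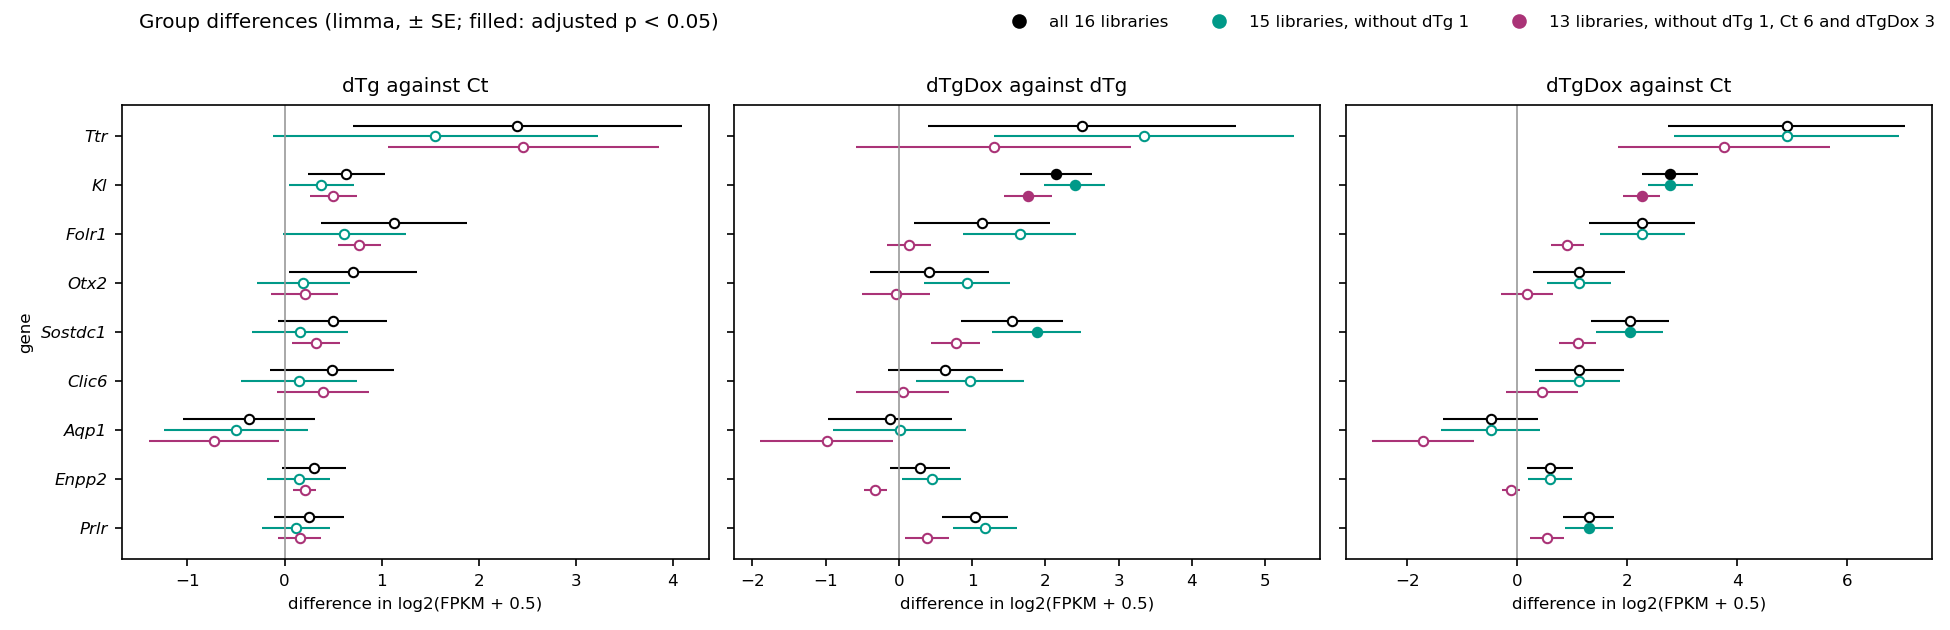
Differences between groups in log2(FPKM + 0.5), with standard errors, for the 9 choroid plexus genes tested by limma, with all 16 libraries, without dTg 1, and without dTg 1, Ct 6 and dTgDox 3. Filled points have an adjusted p below 0.05; Kl is filled in all 3 fits of both doxycycline comparisons, and in dTg against Ct no point is filled.

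Kl encodes klotho, a coreceptor for the hormone FGF23 that is also shed into cerebrospinal fluid (chromosome 5, 150952607 to 150993817 in GRCm38, plus strand). Its level was 3.78, 4.30 and 16.8 FPKM in the dTgDox libraries. In Ct it ran from 0.300 through a median of 0.467 to 1.07 FPKM (mean 0.555 ± 0.274, SD, n = 6), the highest being Ct 6. In dTg it ran from 0.273 through a median of 0.858 to 4.16 FPKM, the highest being dTg 1, and dTg 2 to dTg 7 reached at most 1.73 FPKM. All 3 dTgDox libraries lay above all 6 Ct libraries, which 11.5% of all tested genes did, and Kl was the only choroid plexus gene to do so. No choroid plexus gene had all dTgDox libraries above all 7 dTg libraries, as 7.73% of genes did, because dTg 1 exceeded dTgDox 1 for Kl. Without dTg 1, Kl and Sostdc1 did so, as did 11.3% of genes.

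Kl rose by 2.14 on the log2 scale (SE 0.50, limma adjusted p = 0.0162) in dTgDox against dTg and by 2.78 (SE 0.51, limma adjusted p = 0.00396) against Ct. Without dTg 1, Ct 6 and dTgDox 3 the differences were 1.76 (SE 0.33, limma adjusted p = 0.00474) and 2.26 (SE 0.34, limma adjusted p = 0.00111). With dTgDox 3 alone left out, the difference from dTg was 1.501 (limma adjusted p = 0.119) and no longer passed, whereas that from Ct was 2.14 (limma adjusted p = 0.0319). The difference from dTg also did not pass with the replicate block (2.11, limma adjusted p = 0.106) or when these 2 groups were fitted alone (2.14, limma adjusted p = 0.0817). With the mean level of the 25 other choroid markers as a covariate, the differences were 1.26 (limma adjusted p = 0.00754) and 1.64 (limma adjusted p = 0.00345). That mean includes Car12 and Slc29a4, which were higher in dTgDox also without dTg 1, Ct 6 and dTgDox 3, so it does not measure choroid tissue alone. With log2 Ttr as the covariate and without dTg 1, they were 1.77 (limma adjusted p = 0.000174) and 1.85 (limma adjusted p = 0.000298). Kl was thus higher in dTgDox 1 and dTgDox 2 than in Ct 6, dTg 2, dTg 4 and dTg 6, all of which held more Ttr. Markers of hippocampal neurons were higher in the same 3 libraries, with 12 of 12 listed genes above 0 in every library and 9 of 12 passing the test as higher in each comparison. Their median difference was 2.46 against dTg and 2.50 against Ct, and their part in the result for Kl was not tested. Examples are C1ql2, a gene of dentate granule cells, at 17.4 to 40.6 FPKM in dTgDox and at most 1.36 FPKM in all others, and Lct at 4.90 to 5.82 FPKM against at most 0.718 FPKM. Mature oligodendrocyte markers summed to 2899 to 4365 FPKM in dTgDox and 1043 to 2836 FPKM in the other groups, and their part was not tested either. Ependymal markers, whose sums are given above, were also highest in the 3 dTgDox libraries: all 12 tested had positive differences in both comparisons (median 0.82 against dTg and 0.87 against Ct), of which 2 and 1 passed, and their part was not tested. In these 2 comparisons 8.01% and 7.84% of all genes passed.

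The stretch upstream of Kl is shown because Kl alone of the 9 tested genes passed in both doxycycline comparisons with all 16 libraries. These are the 250 bases before its start in RefSeq (GRCm38.p6, chr5:150952357-150952606, plus strand), 66.8% of them G or C and with 13 CpG dinucleotides, where the median over 32851 such windows of all genes was 52.4% and 6. The sequence is in lower case, with no part in capitals, as none of the motifs searched below was found in it.
Kl: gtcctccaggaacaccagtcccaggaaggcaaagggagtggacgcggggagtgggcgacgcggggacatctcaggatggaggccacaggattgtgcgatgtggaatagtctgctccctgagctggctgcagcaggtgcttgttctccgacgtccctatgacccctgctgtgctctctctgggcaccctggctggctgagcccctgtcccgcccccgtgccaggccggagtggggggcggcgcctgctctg

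Windows of this kind were matched for 5 of the 10 genes (Kl, Aqp1, Slc4a5, Otx2 and Prlr), with 10 windows in all since Otx2 and Prlr have several starts. They were searched on both strands for 7 patterns. TAATCC, the core read by Otx factors, was in 1 Otx2 window and in 6.25% of all windows, and TAATC, which it contains, was in the same 1 and in 19.84% of all. GTTGCC, part of the X-box, was in 3 windows, of Aqp1 and Otx2 (10.43% of all). TATAAA was in 2, of Slc4a5 and Otx2 (12.37%), and TGTTTAC, a forkhead motif, in 1 of Prlr (3.17%). TGACGTCA, the cyclic AMP response element, and the palindromic nuclear factor I motif with a spacer of 5 bases were in none (1.55% and 0.04% of all). No pattern was found in more than 2 of the 5 genes. A match is a string of letters and not a bound site.

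Of the secreted products besides Ttr, Sostdc1 and Enpp2 behaved differently. Sostdc1, an antagonist of BMP and Wnt signals, was at 0.984, 1.21 and 15.5 FPKM in dTgDox. It ran from 0.0736 through 0.289 to 0.985 FPKM in Ct and from 0.157 through 0.643 to 4.34 FPKM in dTg. dTgDox 1 and Ct 6 were level, so the dTgDox and Ct groups overlapped by that pair alone. The difference in dTgDox was 1.54 against dTg (SE 0.70, limma adjusted p = 0.201) and 2.04 against Ct (SE 0.71, limma adjusted p = 0.0967). Without dTg 1 it passed, at 1.88 (limma adjusted p = 0.044) and 2.04 (limma adjusted p = 0.0299). Without dTg 1, Ct 6 and dTgDox 3 it was 0.77 (limma adjusted p = 0.16) and 1.10 (limma adjusted p = 0.0551), which did not pass. With the 25 other choroid markers as a covariate it was 0.24 and 0.35 (limma adjusted p = 0.558 and 0.476), with the limit of that covariate given for Kl.

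Enpp2 encodes autotaxin, the enzyme that makes lysophosphatidic acid. It was the most abundant of the 10 in 13 libraries, Ttr being higher in dTgDox 3, dTg 1 and dTg 6 only. In dTgDox it was at 58.0, 82.3 and 342 FPKM. It ran from 61.3 through 80.9 to 97.9 FPKM in Ct and from 72.3 through 93.1 to 189 FPKM in dTg. Outside dTgDox 3 and dTg 1 the 14 libraries lay within 58.0 to 99.3 FPKM, a span of less than 2 times, while Ttr varied from 0.407 to 120 FPKM among them. The fitted difference was 0.29 against dTg (SE 0.41, limma adjusted p = 0.736) and 0.59 against Ct (SE 0.42, limma adjusted p = 0.453). It took the opposite sign without dTg 1, Ct 6 and dTgDox 3, at -0.32 (limma adjusted p = 0.229) and -0.11 (limma adjusted p = 0.725).

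The receptors were low outside dTgDox 3 and dTg 1. Folr1, the folate receptor that carries folate into cerebrospinal fluid, was at 0.697, 0.715 and 27.5 FPKM in dTgDox. It ran from 0.0336 through 0.114 to 0.720 FPKM in Ct, the highest being Ct 6, and from 0.239 through 0.853 to 12.7 FPKM in dTg. dTgDox 1 and dTgDox 2 lay below Ct 6. Its difference from Ct was 2.27 (SE 0.96, limma adjusted p = 0.172) and, without dTg 1, Ct 6 and dTgDox 3, 0.91 (SE 0.30, limma adjusted p = 0.0734). Prlr, the prolactin receptor, was at 0.642, 0.298 and 4.52 FPKM in dTgDox. It ran from 0.0175 through 0.0953 to 0.737 FPKM in Ct, the highest here being Ct 4 and not Ct 6, and from 0.0958 through 0.287 to 0.928 FPKM in dTg. It passed against Ct without dTg 1 (1.29, SE 0.43, limma adjusted p = 0.0489), and without dTg 1, Ct 6 and dTgDox 3 the difference was 0.53 (limma adjusted p = 0.302).

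Otx2 was the 1 gene with its highest level in dTg 1, at 10.4 FPKM, with 0.419, 0.357 and 6.10 FPKM in dTgDox. It ran from 0.0509 through 0.219 to 0.844 FPKM in Ct and was at most 1.34 FPKM in dTg 2 to dTg 7. The 2 highest Ct libraries were Ct 4 (0.844 FPKM) and Ct 5 (0.732 FPKM), where Ttr was 0.867 and 3.56 FPKM, so Otx2 and Ttr did not follow the same order there. Its difference from dTg was 0.42 (SE 0.82, limma adjusted p = 0.813), and it was -0.037 (limma adjusted p = 0.972) without dTg 1, Ct 6 and dTgDox 3.

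Among the ion and water carriers, Slc4a5 kept closest to Ttr. It encodes a sodium bicarbonate cotransporter of the ventricular face and was at 4.49 FPKM in dTgDox 3 and 2.27 FPKM in dTg 1. The next libraries were dTg 4 (0.491 FPKM), dTg 6 (0.382 FPKM) and dTg 2 (0.353 FPKM), which are also libraries of high Ttr, and Ct 5 was listed at 0. Clic6 was at 0.5997, 1.19 and 8.79 FPKM in dTgDox and at 6.36 FPKM in dTg 1. In Ct it reached 2.95 FPKM in Ct 4 and 2.32 FPKM in Ct 6, with 0.0485 to 0.370 FPKM in the 4 others, and Ct 4 held only 0.867 FPKM of Ttr. Ct 4 and Ct 6 were also the highest libraries for 8 striatal genes, a list chosen after the values were seen (summed level 575 and 650 FPKM, with 56.1 to 358 FPKM in the others). Drd2, a dopamine receptor of striatal neurons, was at 18.9 and 19.1 FPKM in these and at most 10.7 FPKM elsewhere. The part of striatal markers in the level of Clic6 was not tested. The differences of Clic6 were 0.63 against dTg and 1.12 against Ct (limma adjusted p = 0.69 and 0.458).

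Aqp1, the water channel of the ventricular face of the choroid epithelium (chromosome 6, 55336432 to 55348555 in GRCm38, plus strand), departed most from the others. Its highest library was Ct 1, at 7.19 FPKM, followed by dTgDox 3 at 4.58, dTg 3 at 3.67, Ct 5 at 3.59, Ct 2 at 2.0 and dTg 1 at 1.90 FPKM. Ttr in Ct 1, dTg 3, Ct 5 and Ct 2 was 1.31, 1.05, 3.56 and 2.22 FPKM. dTgDox 1 and dTgDox 2, at 0.130 and 0.144 FPKM, were among the 3 lowest. The same 4 libraries were the highest for 7 olfactory bulb genes, a list also chosen after the values were seen: the summed level was 311 FPKM in Ct 1, 197 in dTg 3, 173 in Ct 5 and 61.7 in Ct 2, with 3.34 to 25.6 FPKM in the other 12. Eomes, a transcription factor of mitral and tufted cells, was at 14.7 FPKM in Ct 1, 7.55 in dTg 3, 6.79 in Ct 5 and 3.97 in Ct 2. Over the 14 libraries without dTg 1 and dTgDox 3, the 5 genes closest to Aqp1 in log2 level were Lgr6, Adamts19, Eomes, Shisa3 and Gpsm1 (Pearson r 0.979 to 0.985), a description over libraries that share their dissection, with no test. The part of olfactory bulb markers in the level of Aqp1 was not tested. Its difference was -0.12 against dTg (SE 0.85, limma adjusted p = 0.955) and -0.49 against Ct (SE 0.87, limma adjusted p = 0.809).

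The stretch upstream of Aqp1 is shown because its levels parted from those of Ttr (RefSeq, GRCm38.p6, chr6:55336049-55336298, plus strand, 250 bases before the start). It was 62.0% G or C with 5 CpG dinucleotides, and capitals mark its 1 match to GTTGCC, whose first base lies 111 bases before the RefSeq start. No other pattern searched was found in it. The GENCODE start of Aqp1 given above, 55336432, lies downstream of that RefSeq start.
Aqp1: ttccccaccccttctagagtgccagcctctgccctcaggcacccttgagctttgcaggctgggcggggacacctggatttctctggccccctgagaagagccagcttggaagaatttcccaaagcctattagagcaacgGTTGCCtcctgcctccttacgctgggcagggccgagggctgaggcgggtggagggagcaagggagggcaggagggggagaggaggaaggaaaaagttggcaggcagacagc

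Genes that act with the 10 were taken from a list of 27 partners, such as receptors for retinol carriers, FGF receptors and lysophosphatidic acid receptors, of which 22 were tested. In dTg against Ct 0 passed by limma. In dTgDox 2 passed as higher, Stra6 and Lpar4, and 0 as lower, against dTg and against Ct alike, where 8.01% and 7.84% of all genes passed. Without dTgDox 3 alone, where 622 and 663 of 19186 genes passed, 1 partner rose in each. Without dTg 1, where 18.7% and 19.6% of all genes passed, 3 partners rose and 2 fell against dTg, and 4 rose and 2 fell against Ct. Those that gained the threshold without dTg 1 in both comparisons, named after their values were seen, were Fgfr1, an FGF receptor, which rose by 1.09 and 0.95, Rbp4, the plasma carrier of retinol, which fell by 0.53 and 0.34, and Stat5b, which relays the prolactin signal and fell by 0.38 and 0.52 (limma adjusted p at most 0.035). Stra6, the receptor that takes up retinol from its carrier, was at 5.22, 3.89 and 4.82 FPKM in dTgDox and 1.70 to 2.59 FPKM in all others (0.95 and 1.04, limma adjusted p = 0.000105 and 6.38e-05). Lpar4, a receptor for the product of Enpp2, was at 1.06 to 1.20 FPKM in dTgDox and 0.312 to 0.736 FPKM in the others (0.66 and 0.69, limma adjusted p = 0.0194 and 0.0166). For both genes the dTgDox values lay above all others, but without dTg 1, Ct 6 and dTgDox 3 Lpar4 did not pass (limma adjusted p = 0.065 and 0.0504). Of 20 genes of cerebrospinal fluid ion and water transport, 0 passed in dTg against Ct, and 2 rose and 2 fell in each doxycycline comparison with all 16 libraries. Without dTg 1, 6 rose and 3 fell against dTg, and 4 rose and 3 fell against Ct. The shares of all genes that passed in these fits are those given for the partners. With all libraries Slc4a7, a bicarbonate cotransporter, rose by 0.90 and 0.92. Slc23a2, a vitamin C transporter, fell in both, Atp1b1, a subunit of the sodium pump, rose against dTg, and Car2, a carbonic anhydrase, rose against Ct. In all of these dTgDox 3 lay within or close to the other dTgDox libraries, and hippocampal markers moved with them; their part was not tested.

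Among the 25 other choroid markers, 15 were tested. In dTg against Ct 0 passed. In dTgDox 1 passed against dTg (Car12) and 4 against Ct, all higher, where 8.01% and 7.84% of all genes passed. Car12, a carbonic anhydrase of the cell surface, was at 10.5, 5.53 and 16.7 FPKM in dTgDox and 0.941 to 4.83 FPKM in all others. Slc29a4, a monoamine transporter, was at 12.7, 10.7 and 13.96 FPKM in dTgDox, 2.11 to 4.47 FPKM in Ct and dTg 2 to dTg 7, and 21.7 FPKM in dTg 1. Without dTg 1, Ct 6 and dTgDox 3, where 11% and 10.9% of all genes passed, these were the 2 of the 15 that passed. Their differences from Ct were 1.29 (limma adjusted p = 0.0491) for Car12 and 1.601 (limma adjusted p = 0.00157) for Slc29a4. Calml4 and Msx1, which passed against Ct with all libraries (limma adjusted p = 0.0429 and 0.0406), did not pass there. With dTgDox 3 alone left out, 0 of the 15 passed against Ct and 1 against dTg, where 663 and 622 of 19186 genes passed. Without dTg 1 and dTgDox 3, 1 rose and 1 fell against Ct, where 2337 genes passed. Markers of hippocampal neurons, oligodendrocytes and ependymal cells were high in the same 3 libraries, with the values given for Kl, and their part in Car12 and Slc29a4 was not tested.

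The genes outside all lists whose pattern was most like the mean standardised level of the 9 tested genes, over the 15 libraries without dTg 1, were Drc7, Cab39l, Wfdc2, Prr32, Slc2a12, Dock6, Trpm3, Ubxn10, Elovl7 and Ccdc114, with Pearson r of 0.846 to 0.965. Over all 16 libraries the first 5 were Cab39l, Drc7, Wfdc2, Prr32 and Slc31a1 (0.876 to 0.932). Each of the 10 was highest in dTgDox 3 among the 15, for example Wfdc2 at 4.12 FPKM with 0.12 to 0.62 FPKM in the 14 others, so the likeness rests on that library. Over the 14 libraries without it the 5 closest were Tnni1, Rpl24, Wipf1, Drc7 and Prr18 (0.873 to 0.894), of which Drc7 alone is among the 10. The libraries share these extremes, so the correlations are descriptions and carry no test.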

How the data were processed

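The deposited FPKM values of 16 distinct libraries were used as the authors gave them, 1 value per Ensembl gene. The submitters' processing notes list TopHat2 and DESeq without a version, and which build and program gave the FPKM values was not given in the sources used here. Symbols and coordinates came from GENCODE M21 (GRCm38), which named 45139 of 46073 identifiers. FPKM is per length, so levels can be compared between genes, and it holds no counts, so limma was used rather than a count test. Values were analysed as log2(FPKM + 0.5), a pseudocount that shrinks differences of low genes, for the 19186 genes reaching 0.5 FPKM in 3 libraries or more, with limma 3.58.1 in R 4.3.3. One mean per group was fitted in all libraries together, with a trended, robust empirical Bayes step, and two-sided p-values were adjusted over all genes (threshold 0.05). P-values measure the spread between libraries, since nothing beyond the labels says that each is 1 mouse. Alternatives changed the pseudocount, filter, scaling, weights, replicate block, covariate or libraries, and those that left out libraries kept the same genes. The script was tested on simulated data.

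The 10 genes, the gene lists and the tests were chosen with earlier results of these data known. Named genes are all 10, and from each other list at most the 4 passing genes with the smallest p. The olfactory bulb and striatal lists, the examples taken from marker lists beyond that rule, and 4 alternatives (without dTg 1 and dTgDox 3, a choroid covariate or Ttr as covariate without dTg 1, and the block without dTg 1) were chosen after the values were seen. Some genes that these rules name are not reported here. Promoter sequences are from RefSeq (GRCm38.p6) and were matched for 5 of the 10 genes. Motifs were searched in Python 3.11.15 with pandas 2.3.3.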

Additional observations from a re-analysis of the deposited data

Results flagged for a closer look

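Among 20 sets of values (10 genes in the 6 Ct and the 7 dTg libraries), 11 held a library whose gap to its nearest neighbour took more of the group's range than Dixon's 95% limit. That limit flags about 1 in 20 sets of independent, normally distributed values. The 10 genes were chosen with earlier results known and were measured in the same libraries, so the number of flags cannot be set against that rate. In 9 of the 11 the flagged library was dTg 1, the highest of its group at 665 FPKM for Ttr, 4.16 for Kl, 12.7 for Folr1, 10.4 for Otx2, 4.34 for Sostdc1, 6.36 for Clic6, 2.27 for Slc4a5, 189 for Enpp2 and 0.928 for Prlr. Aqp1 was the gene without a flag there. The other flags were Ct 6 for Ttr, at 86.7 FPKM, and Ct 4 for Prlr, at 0.737 FPKM. The 3 dTgDox libraries were not put through this check.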

How the results depend on the processing

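Over 822 values of the 9 tested genes under the alternatives, 768 kept their direction and their side of the threshold, 43 changed sign, none of these passing the threshold, 3 lost it and 8 gained it. Depth is not known in reads, and levels under 0.5 FPKM are dominated by the pseudocount. The cause of the changes below was not tested.

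In dTg against Ct the number of genes passing was 0 to 1 with single libraries left out and 1 with a pseudocount of 0.1. In dTgDox against dTg it was 1537, with 546 to 3595 on leaving out single libraries, 4674 with quality weights, 694 with the 2 groups alone and 2372 without dTg 1 with Ttr as covariate. Against Ct it was 1504, with 614 to 3757 on leaving out single libraries, 4868 with quality weights, 673 with the choroid covariate, 3378 with the 2 groups alone and 2337 without dTg 1 and dTgDox 3. For the choroid plexus genes the number was 0 to 2 against dTg and 1 to 3 against Ct on leaving out single libraries, 3 in both with quality weights and 0 against dTg with the 2 groups alone. Without dTgDox 3 no choroid gene passed against dTg (Kl 1.501, adjusted p = 0.119 by limma), and without dTg 1 and without dTgDox 2 Prlr gained the threshold against Ct (adjusted p = 0.0489 and 0.0444).

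Over 12 same-numbered pairs of libraries, deviations from the group means correlated from -0.14 to 0.10. Pairs with different numbers were not compared, so these values cannot decide whether the numbers pair the libraries. With the replicate block 541 and 608 genes passed against dTg and Ct, and 2382 against Ct without dTg 1. The block left 0 choroid genes against dTg (Kl 2.11, adjusted p = 0.106 by limma) and 1 against Ct.

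No value that changed sign passed. Against dTg, with the choroid covariate, Folr1 was -0.60, Otx2 -0.98, Enpp2 -0.46, Clic6 -0.65 and Ttr -0.77, and with that covariate and without dTg 1 they were -0.21, -0.40, -0.46, -0.46 and -0.37. Against Ct, with the choroid covariate, Otx2 was -0.69, Enpp2 -0.37 and Clic6 -0.53, and without dTg 1 -0.29, -0.37 and -0.40. Without dTg 1, Ct 6 and dTgDox 3, Otx2 was -0.037 and Enpp2 -0.32 against dTg, and Enpp2 -0.11 against Ct. Without dTg 1 and dTgDox 3 these were -0.037, -0.32 and -0.18. With Ttr as covariate and without dTg 1, Enpp2 was -0.025 and Clic6 -0.22 against Ct, and in dTg against Ct Prlr was -0.078, Otx2 -0.14, Enpp2 -0.05, Clic6 -0.28 and Sostdc1 -0.23. In dTg against Ct, Clic6 was -0.001 with quality weights and Enpp2 -0.001 with the block and without dTg 1.

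With each library left out in turn, Aqp1 ran from -0.66 to 0.053 in dTg against Ct, -1.12 to 0.39 against dTg and -1.49 to 0.019 in dTgDox against Ct. Against dTg, Folr1 ran from -0.38 to 1.90, Otx2 from -0.55 to 0.93, Enpp2 from -0.48 to 0.80 and Clic6 from -0.29 to 1.25, the lowest of each without dTgDox 3. Enpp2 ran from -0.18 to 1.10 against Ct.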
